A study of Mus musculus with 6 samples.

Results

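The genes described here are matrix metalloproteases (MMPs) and their tissue inhibitors (TIMPs) in clones of the mouse mammary carcinoma line 4T1. The set was chosen by gene name and holds 10 genes, namely the proteases Mmp14, Mmp15, Mmp9, Mmp2, Mmp3, Mmp10 and Mmp13 and the inhibitors Timp1, Timp2 and Timp3. Of these, 9 had a value among the 19179 genes listed for each library, and the level of Timp3 was not analysed here. The set was drawn up with earlier results of the same comparison known, so the differences of its members are given as a description, without p-values. The listed genes included 18 named as an MMP or a TIMP, and the 9 that are not in the set are described after it.

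4T1 is a carcinoma line from the BALB/c mouse strain that metastasizes spontaneously. Clones grown for 14 days from wells of 96-well plates seeded at 1 cell per well were collected as 10 clones of each kind, with material from 3 experiments. Messenger RNA sequencing gave 3 libraries from clones with the tissue label breast cancer stem cell, called stem-labelled here, and 3 libraries from clones labelled breast cancer cell, called other clones. All 6 libraries come from the same line, and the labels name no treatment, allele or gate that separates the kinds. Neither the criterion that sorted clones into kinds, nor the number of clones per library, nor the experiment a library belongs to is stated, so the errors given are the spread between these libraries, which may in part be technical.

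MMPs are zinc endopeptidases that cut collagens, laminins, fibronectin and many cell-surface proteins, and they are made as inactive proenzymes. Some are secreted and others, such as Mmp14, are anchored in the cell membrane. TIMPs bind the catalytic site of the active enzymes and block it, and TIMP2 has a second role, since together with MMP14 it forms the surface complex that activates proMMP2. In carcinomas these genes are known for the breakdown of basement membrane around invading cells.

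Levels are given as RPKM, reads per kilobase of gene length and scaled by the library total that the authors used. RPKM is per length, but a length trend given below bears on comparisons between genes of unlike length. Log2 fold changes are of RPKM + 1, stem-labelled minus other, with the standard error (SE) of the fit over all genes. Each stem-labelled library held 21196572 to 22838870 reads in genes, and each other library 15357608 to 16830762. Relative to the total that the deposited unit implies, this was 0.658 to 0.757 for the stem-labelled and 1.23 to 1.53 for the other libraries, so the zero point of the scale depends on the total used. The median log2 fold change of all tested genes was 0.11 on the deposited scale, 0.33 with upper-quartile scaling and 0.87 with each library rescaled to its summed reads. The deposited scale gave 3014 genes called higher and 2563 called lower, and the rescaled values gave 6163 higher and 1209 lower. Changes also followed gene length. With the tested genes split into deciles of length, the shortest (57 to 1075 bases) had a median of -1.17 and the longest one of 0.71, and values corrected for length and GC content are given beside the members for that reason.

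The cultures carried epithelial markers, with 5 of 5 tested, 1 higher (Cdh1) and 2 lower (Krt18 and Krt19), and a summed level of 913 to 1400 RPKM in stem-labelled against 1872 to 3464 RPKM in other libraries. Epcam, an epithelial adhesion protein, stood at 50.2 to 59.8 RPKM in stem-labelled and 53.5 to 58.5 RPKM in other libraries. The leukocyte gene Ptprc, the macrophage receptor Csf1r, the endothelial gene Pecam1 and the fibroblast genes Col1a1 and Dcn were all below 0.1 RPKM in every library. Some single markers of other cells were present. The lysosomal gene Cd68 was at 12.2 to 39.9 RPKM in stem-labelled and 6.08 to 29.3 RPKM in other libraries. Pdgfra was called higher, at 1.64 to 3.34 RPKM in stem-labelled against 0.396 to 0.929 RPKM in other libraries. It was under 1 RPKM in all other libraries, so it entered the fit through the stem-labelled group alone. Its log2 fold change of 1.10 fell to 0.15 after the length and GC correction. The calprotectin gene S100a8 was called lower, at 0.313 to 1.23 RPKM in stem-labelled against 2.08 to 21.2 RPKM in other libraries. It entered the fit mainly through the other clones. Tie1 stayed under 0.1 RPKM in stem-labelled libraries and was at 0.392 to 2.85 RPKM in the others. The part of these markers in the results was not tested. Of 9 mammary stem cell markers, 8 had a value and 6 were tested, with 2 higher, 1 lower and 3 not passing. Among all genes tested, 29.9% were higher and 25.4% lower.

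**Figure D1:**
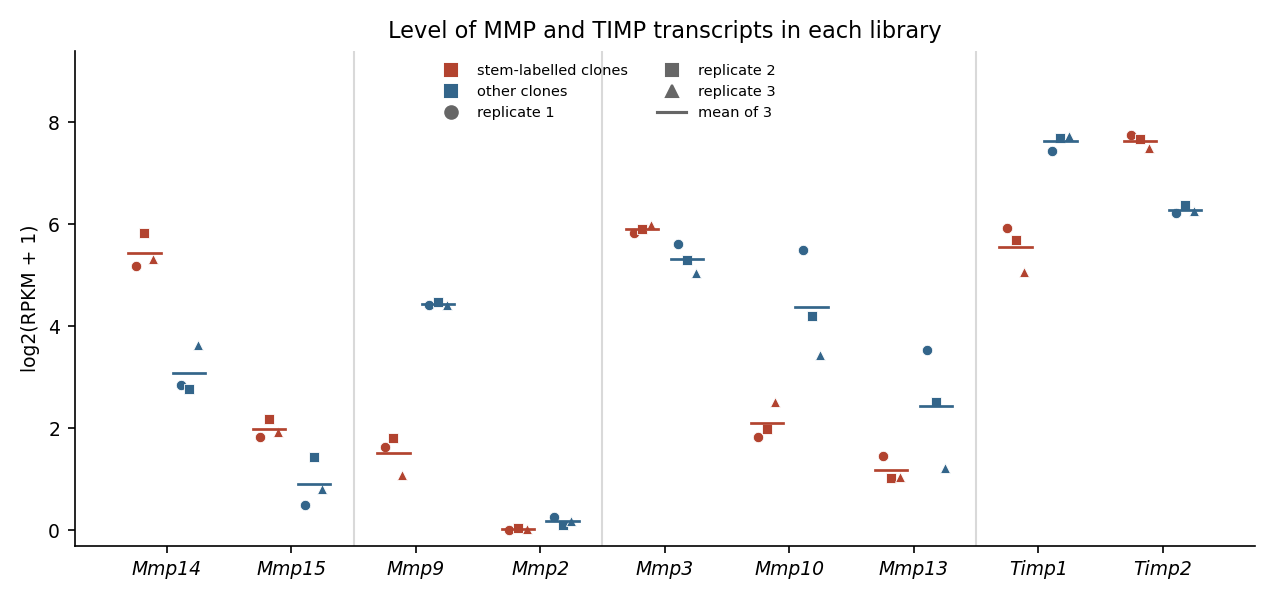
Level of the 9 genes in each of the 6 libraries, as log2(RPKM + 1), with stem-labelled clones in red to the left of other clones in blue, the symbol giving the replicate number and the bar the mean of 3. Mmp14, Mmp15, Mmp3 and Timp2 lie higher in all stem-labelled libraries, Mmp9, Mmp10 and Timp1 lie lower there, and Mmp13 overlaps, all on the deposited scale. Mmp2, with 0 to 7 reads per library, is near the limit of detection, and no direction is read from it.

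Of the 9 genes, 8 reached 1 RPKM in at least 3 libraries and entered the fit, and Mmp2 did not. Called at an adjusted p under 0.05 (limma) were 7 of the 8, which compares with 55.2% of the 10097 genes tested. Mmp14, Mmp15 and Timp2 were the 3 called higher, where 29.9% of all genes were, and Mmp9, Mmp10, Mmp13 and Timp1 were the 4 called lower, where 25.4% of all genes were. The groups did not overlap for 7 of the 8, against 63.5% of all genes tested, on the deposited scale. Nothing is read from these counts, because the set was chosen with this comparison known. In a bulk library, fewer cells that express a gene and less transcript per cell cannot be told apart.

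Both membrane-type proteases of the set were higher in the stem-labelled clones. Mmp14 (ENSMUSG00000000957, GRCm38 chromosome 14, 54431612 to 54441265, plus strand) encodes MT1-MMP, a collagenase of the cell surface that also activates proMMP2. Its values, in the order of the replicate numbers as for all genes here, were 35.2, 55.6 and 39.0 RPKM in stem-labelled and 6.25, 5.79 and 11.4 RPKM in other libraries. The lowest stem-labelled library lay well above the highest of the others, and replicate 3 of the other clones was the highest of its group. The mean was 43.3 ± 10.8 RPKM for stem-labelled and 7.83 ± 3.13 RPKM for other clones (SD, n = 3 each), a 5.53-fold difference. On the log2 scale the change was 2.35 ± 0.29 (SE), 2.12 after the length and GC correction and 3.23 on rescaling. These values rest on 4309 to 7247 reads per stem-labelled library and 310 to 495 per other library.

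Mmp15 (ENSMUSG00000031790, chromosome 8, 95352268 to 95374293, plus strand), which encodes the related MT2-MMP, was present at much lower levels. Its values were 2.54, 3.53 and 2.83 RPKM in stem-labelled libraries and 0.405, 1.70 and 0.754 RPKM in the others. The groups did not overlap, but the other libraries varied 4.2-fold among themselves and rest on only 21, 92 and 33 reads. It reached 1 RPKM in 1 of the other libraries, so it entered the fit mainly through the stem-labelled group. Its log2 fold change was 1.07 ± 0.25, 1.39 after the correction and 1.61 on rescaling. Mmp14 and Mmp15 are 4299 and 4348 bases long, and in their length deciles 30.7% and 37.1% of genes were called higher.

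The gelatinase Mmp9 went the other way. Mmp9 (ENSMUSG00000017737, chromosome 2, 164940780 to 164955850, plus strand) is a secreted enzyme that degrades denatured collagen and type IV collagen. It was at 2.09, 2.51 and 1.13 RPKM in stem-labelled libraries and at 20.3, 21.2 and 20.3 RPKM in the others. The 3 other libraries were nearly equal, with the highest only 1.04 times the lowest, while the stem-labelled ones spread 2.22-fold. The mean was 1.91 ± 0.709 RPKM in stem-labelled clones and 20.6 ± 0.513 RPKM in the other clones (SD, n = 3 each), 10.8-fold lower in the stem-labelled clones. The log2 fold change of -2.92 ± 0.23 barely moved with the length and GC correction (-2.90) and stood at -2.16 on rescaling. It was the largest change in either direction among the members on the deposited scale.

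Mmp2 (ENSMUSG00000031740, chromosome 8, 92827328 to 92853417, plus strand), the other gelatinase and the usual substrate of the MMP14 and TIMP2 complex, was near the limit of detection. It had 0, 3 and 2 reads in stem-labelled libraries and 7, 3 and 4 reads in the others. The highest value was 0.193 RPKM, and the 0 of replicate 1 of the stem-labelled clones allows up to 0.0347 RPKM (3 reads, counting error only). No fold change is given for it at this depth.

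Mmp3, Mmp10 and Mmp13 lie in 1 group of MMP genes on chromosome 9. From the start of Mmp13 to the end of Mmp10 it spans 237.725 kb and also holds Mmp12, Mmp1b and Mmp1a. Mmp3 and Mmp10 encode the stromelysins, secreted enzymes of broad specificity that can activate other proMMPs, and Mmp13 encodes a collagenase. All 3 have an AP-1 motif and a TATA motif shortly before the RefSeq start. The last 100 bases before that start (RefSeq, GRCm38.p6, all on the plus strand) are shown for these 3 neighbours and, as members without either motif, for Mmp14 and Timp1. Capitals mark matches of 3 motifs, AP-1, TATA and SP1, and ETS matches are left in lower case. The AP-1 motif searched was TGANTCA on both strands. The motif searched for a TATA box was TATAAA on the coding strand. For SP1 the motif searched was GGGCGG on both strands. The windows are chr9:7445722-7445821 for Mmp3, chr9:7502242-7502341 for Mmp10, chr9:7272414-7272513 for Mmp13, chr14:54431498-54431597 for Mmp14 and chrX:20870066-20870165 for Timp1.
Mmp3: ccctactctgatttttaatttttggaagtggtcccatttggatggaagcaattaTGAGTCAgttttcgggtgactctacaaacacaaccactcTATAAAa
Mmp10: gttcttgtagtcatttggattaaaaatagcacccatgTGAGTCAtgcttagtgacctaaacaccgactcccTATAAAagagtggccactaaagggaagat
Mmp13: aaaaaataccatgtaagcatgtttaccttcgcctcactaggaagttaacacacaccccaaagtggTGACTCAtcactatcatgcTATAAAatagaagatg
Mmp14: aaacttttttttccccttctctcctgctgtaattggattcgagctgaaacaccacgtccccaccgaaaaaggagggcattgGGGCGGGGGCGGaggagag
Timp1: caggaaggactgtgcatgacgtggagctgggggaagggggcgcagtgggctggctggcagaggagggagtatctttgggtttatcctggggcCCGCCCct

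RefSeq promoters were matched by symbol for 8 of the 10 members, Timp3 included and Mmp9 and Mmp2 not. In the 250 bases before the start, AP-1 was found in 3 of the 8 and in 6.87% of the 27025 promoters searched, and TATA, on the coding strand, in 3 and in 8.12%. SP1 was found in 5 members and in 32.9% of promoters, and an ETS motif (AGGAAG, both strands) in 5 and in 29.2%. No match of these motifs overlapped a match of another one in the members. The AP-1 match lay 46 bases before the start in Mmp3, 63 in Mmp10 and 35 in Mmp13, counted to its first base. A match says only that these letters stand in the window.

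**Figure D2:**
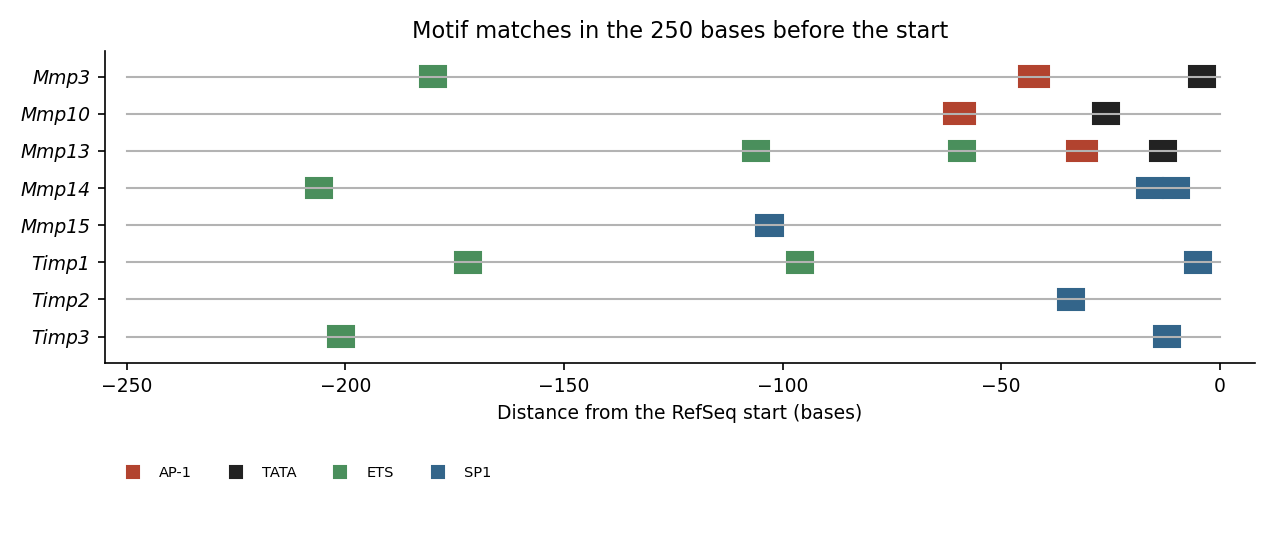
Motif matches in the 250 bases before the RefSeq start of 8 members, with the distance from the start in bases on the horizontal axis and boxes as wide as the match. The 3 chromosome 9 genes at the top are the members with AP-1 and TATA matches, and SP1 matches appear in the 5 members below them.

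Of the 3 neighbours, Mmp3 had the higher mean in stem-labelled clones, while the means of Mmp10 and Mmp13 were lower there. Mmp3 (ENSMUSG00000043613, chromosome 9, 7445822 to 7455972, plus strand) was at 55.5, 58.9 and 62.7 RPKM in stem-labelled libraries and at 48.0, 38.5 and 31.8 RPKM in the others. Every stem-labelled library was above every other library, by a small margin. The mean was 59.1 ± 3.60 RPKM for stem-labelled and 39.4 ± 8.14 RPKM for other clones (SD, n = 3 each). The log2 fold change of 0.59 ± 0.23 did not pass the threshold on the deposited scale. It was 1.04 after the correction and 1.51 on rescaling, and passed under both.

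Mmp10 (ENSMUSG00000047562, chromosome 9, 7502352 to 7510238, plus strand) was at 2.57, 2.95 and 4.73 RPKM in stem-labelled libraries and at 44.2, 17.5 and 9.76 RPKM in the others. All stem-labelled libraries were below all others, although the others differed 4.53-fold among themselves, with replicate 1 far above replicate 3. On rescaling the groups overlapped, since replicate 3 of the stem-labelled clones, at 7.19 rescaled RPKM, lay above replicate 3 of the other clones, at 6.38. The mean was 3.42 ± 1.15 RPKM for stem-labelled and 23.8 ± 18.1 RPKM for other clones (SD, n = 3 each), and the log2 fold change was -2.27 ± 0.45, or -1.78 after the correction and -1.45 on rescaling. Without replicate 1 of the other clones it was -1.71. Mmp3 and Mmp10 have nearly the same length, 1798 and 1720 bases, and close GC content, 45.9% and 46.0%. They share 8.39% and 8.37% of the 50-base stretches of their longest transcripts with each other or another gene, so a small part of their reads could be assigned to either.

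The ratio of Mmp3 to Mmp10 within a library does not depend on the library total. It was 21.6, 19.95 and 13.3 for stem-labelled clones, against 1.09, 2.20 and 3.26 for other clones. Mmp3 was thus many times above Mmp10 in each stem-labelled library and nearly level with it in replicate 1 of the others. The mean ratio was 18.3 ± 4.41 in stem-labelled and 2.18 ± 1.09 in the other clones (SD, n = 3 each).

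Mmp13 (ENSMUSG00000050578, chromosome 9, 7272514 to 7283333, plus strand) was at 1.76, 1.05 and 1.07 RPKM in stem-labelled libraries and at 10.6, 4.75 and 1.34 RPKM in the others. The groups overlapped, since replicate 3 of the other clones lay below replicate 1 of the stem-labelled clones. The other libraries spread 7.93-fold, and replicate 1 was the highest and replicate 3 the lowest of its group, as for Mmp10. The log2 fold change was -1.25 ± 0.48, with -0.78 after the correction and -0.63 on rescaling, where it no longer passed the threshold. Leaving out any single library other than replicate 3 of the other clones also ended the call, and without replicate 1 of the other clones the change was -0.69.

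The 2 inhibitors traded places in RPKM. Timp1 (ENSMUSG00000001131, chromosome X, 20870166 to 20874735, plus strand) encodes a secreted inhibitor of most MMPs that binds proMMP9. It was at 59.9, 50.5 and 32.6 RPKM in stem-labelled libraries and at 173, 206 and 212 RPKM in the others. The groups were far apart, and the mean of 47.7 ± 13.8 RPKM in the stem-labelled clones was 4.14-fold lower than the 197 ± 21.3 RPKM of the other clones (SD, n = 3 each). Its log2 fold change was -2.06 ± 0.28, and -1.15 after the correction and -1.13 on rescaling. At 888 bases Timp1 is in the shortest decile, where the median change was -1.17 and 61.1% of genes were called lower. It lies within Syn1, on the opposite strand, without overlap of exons.

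Timp2 (ENSMUSG00000017466, chromosome 11, 118301069 to 118355740, minus strand) encodes the inhibitor that also bridges MMP14 and proMMP2. It was at 216, 202 and 178 RPKM in stem-labelled libraries and at 73.7, 82.3 and 75.2 RPKM in the others. Replicates were close in both groups, with the highest 1.21 and 1.12 times the lowest in stem-labelled and other clones. The mean was 199 ± 18.9 RPKM for stem-labelled and 77.1 ± 4.63 RPKM for other clones (SD, n = 3 each), a 2.58-fold difference. Its log2 fold change was 1.35 ± 0.23, and 1.09 after the correction and 2.29 on rescaling. In its length decile 30.7% of genes were called higher. Cep295nl lies within Timp2 on the same strand, without overlap of exons.

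By level, Timp2 ranked 193 to 227 among the 19179 listed genes for stem-labelled and 950 to 1097 for other libraries. Timp1 ranked 783 to 1224 in stem-labelled and 429 to 536 in the other libraries. The ratio of Timp2 to Timp1 was 3.60, 4.00 and 5.46 for stem-labelled clones, against 0.426, 0.399 and 0.354 for other clones. In RPKM, Timp2 was therefore the higher inhibitor in each stem-labelled library and Timp1 in each of the others. In reads, not per length, Timp2 was above Timp1 in the other libraries too, at 3420, 3992 and 2950 against 1829, 2279 and 1899. This ratio compares genes of 3896 and 888 bases, so the length trend bears on it. After the length and GC correction the log2 fold changes of Timp2 and Timp1 still had opposite signs, which does not give their order within a library.

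**Figure D3:**
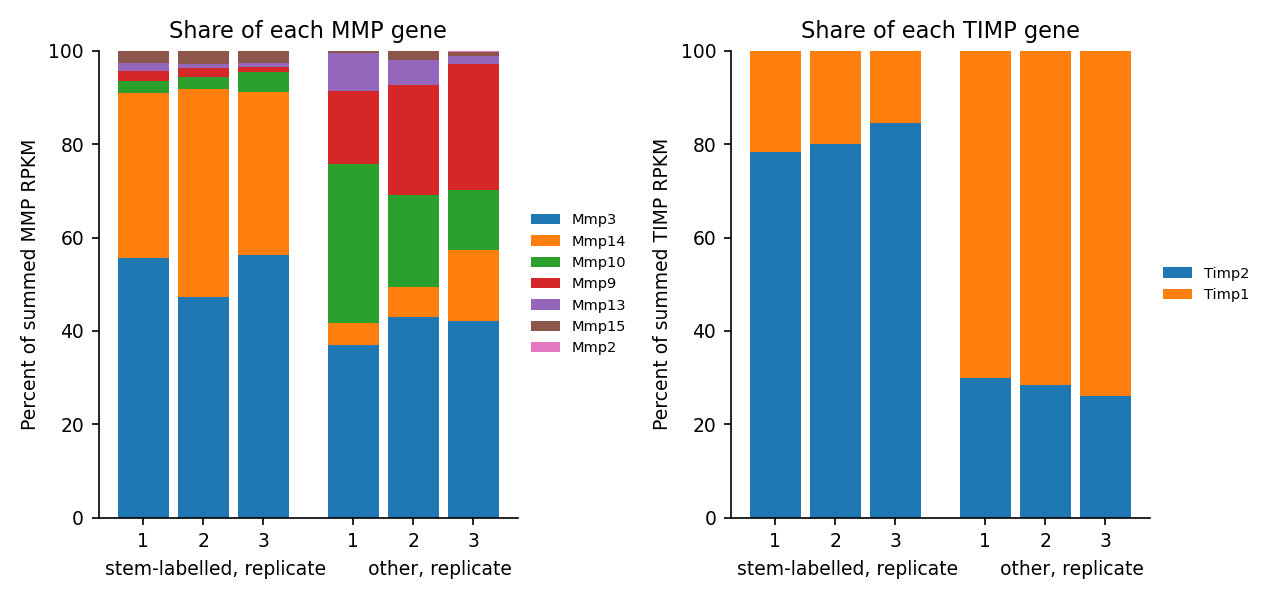
Percent of the summed RPKM of the 7 MMP members (left panel) and of Timp1 and Timp2 (right panel) that each gene contributed in each library, with stem-labelled replicates left of other replicates. Mmp14 takes 35.0 to 44.6% of the MMP sum for stem-labelled and 4.80 to 15.1% for other clones, and Timp2 takes 78.3 to 84.5% of the TIMP sum in stem-labelled libraries, against 26.1 to 29.9% in the others.

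The sums hid these exchanges. The 2 inhibitors together came to 275, 252 and 211 RPKM in stem-labelled libraries and 246, 289 and 288 RPKM in the others, which overlap. The 7 proteases together came to 99.7, 125 and 112 RPKM in stem-labelled libraries and 130, 89.5 and 75.5 RPKM in the others, which overlap as well. In RPKM, Mmp3 was the highest protease in all 6 libraries, taking 47.3 to 56.2% of the protease sum where stem-labelled, against 36.9 to 43.0% otherwise. Next after it came Mmp14 in each stem-labelled library, with 35.0 to 44.6% of the sum, against 4.80 to 15.1% in the others. In the other clones Mmp10 and Mmp9 took larger shares. Mmp10 took 2.37 to 4.24% of the sum for stem-labelled and 12.9 to 34.0% for other libraries. Mmp9 took 1.01 to 2.10% in stem-labelled libraries, against 15.6 to 26.9% in the others.

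In order of mean RPKM the stem-labelled clones ran Timp2, Mmp3, Timp1, Mmp14, Mmp10, Mmp15, Mmp9, Mmp13 and Mmp2. The ranges of neighbours in that order overlapped for Mmp3 with Timp1, Timp1 with Mmp14, Mmp10 with Mmp15 and Mmp9 with Mmp13. In the other clones the order was Timp1, Timp2, Mmp3, Mmp10, Mmp9, Mmp14, Mmp13, Mmp15 and Mmp2. There the ranges overlapped for Mmp3 with Mmp10, Mmp10 with Mmp9, Mmp14 with Mmp13 and Mmp13 with Mmp15. Mmp14 thus stood well above Mmp9 in the stem-labelled clones and below it in the other clones.

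The balance between inhibitors and proteases depended on which pair was taken. The ratio of summed TIMP to summed MMP RPKM was 2.76, 2.03 and 1.89 in stem-labelled libraries and 1.90, 3.22 and 3.81 in the others, and the groups overlapped. The ratio of Timp2 to Mmp14 was 6.12, 3.64 and 4.57 in stem-labelled libraries and 11.8, 14.2 and 6.58 in the others. It was lower in all stem-labelled libraries, though replicate 1 of that group and replicate 3 of the others were close. Both genes were higher in the stem-labelled clones, and Mmp14 by more. The ratio of Mmp14 to Mmp3 was 0.634, 0.944 and 0.622 in the stem-labelled libraries against 0.130, 0.151 and 0.359 in the others, without overlap. These genes have 4299 and 1798 bases, so the length trend bears on this ratio, as on the shares and orders above. The length and GC correction took their log2 fold changes from 2.35 and 0.59 to 2.12 and 1.04.

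**Figure D4:**
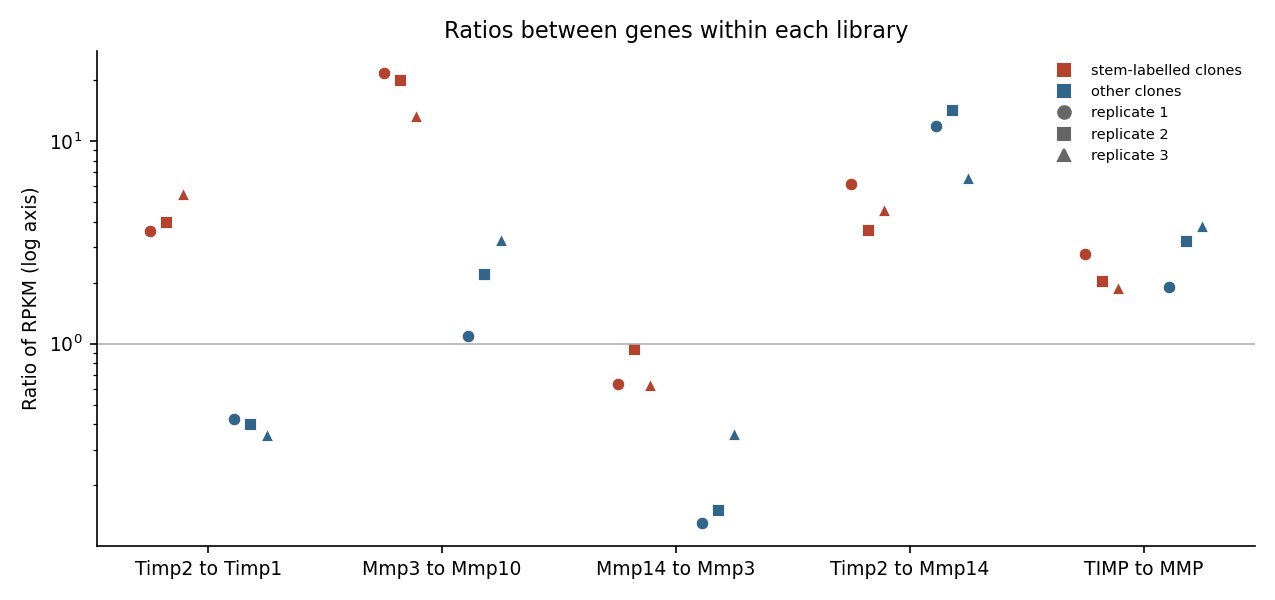
Ratios of RPKM between genes within each library on a log axis, with stem-labelled clones in red left of other clones in blue and symbols for the replicate number. The groups are apart for Timp2 to Timp1, Mmp3 to Mmp10, Mmp14 to Mmp3 and Timp2 to Mmp14, and overlap for summed TIMP to summed MMP, which runs from 1.89 to 2.76 for stem-labelled and from 1.90 to 3.81 for other clones.

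**Figure D5:**
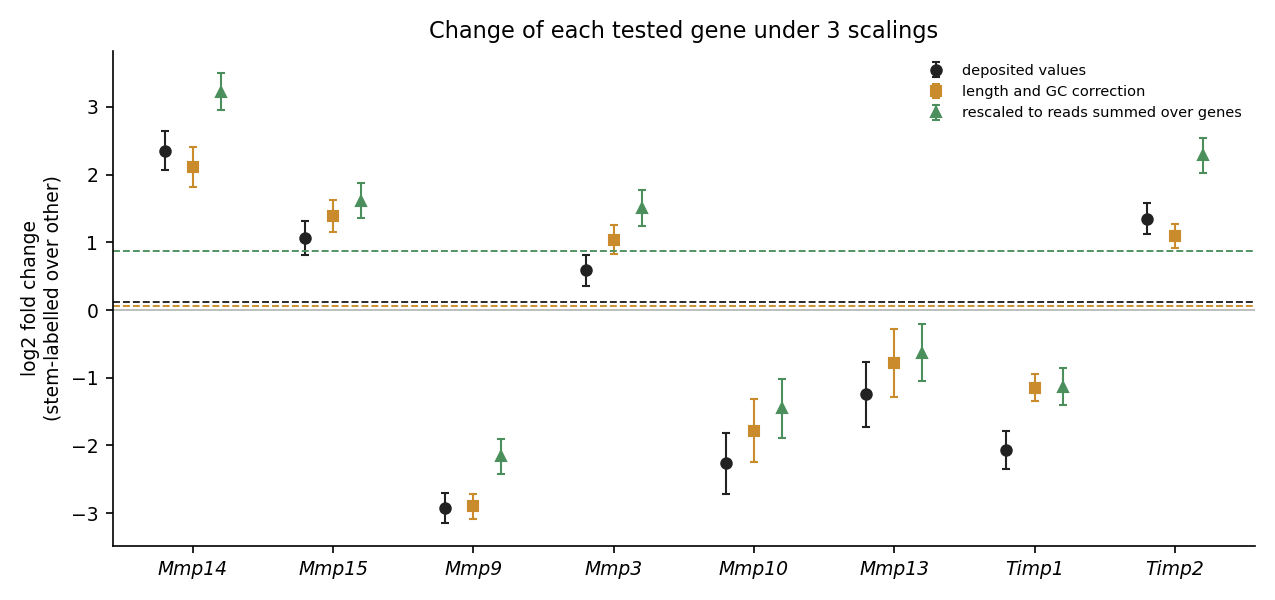
Log2 fold change (stem-labelled over other) of the 8 tested members with SE bars, on the deposited values, after the length and GC correction and after rescaling to reads summed over genes, with dashed lines at the median of all tested genes under each. The 8 genes keep their sign in all 3, while the median of all tested genes is 0.11 on the deposited scale, 0.07 after the correction and 0.87 on rescaling.

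The signs of the 8 changes were the same under the deposited scale, upper-quartile scaling and rescaling to summed reads. Against the median of 0.87 on rescaling, Mmp14, Timp2, Mmp15 and Mmp3 stood above it, at 3.23, 2.29, 1.61 and 1.51. Mmp9, Mmp10, Timp1 and Mmp13 stood below it, at -2.16, -1.45, -1.13 and -0.63.

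Among the other MMP genes only Mmp11 was abundant enough to be tested on the deposited scale. Of 17 further MMP and TIMP genes sought, 9 had a value. Mmp11, which encodes stromelysin-3, was at 6.98, 10.9 and 6.19 RPKM in stem-labelled libraries and at 4.86, 9.09 and 8.77 RPKM in the others, with overlap of the groups, and had a log2 fold change of 0.08 ± 0.28 (limma adjusted p = 0.819). On rescaling it was called higher (0.91, adjusted p = 0.0134), close to the median of all genes there, and its exons overlap Chchd10 on the opposite strand. Its sign changed without replicate 2 of the stem-labelled clones (-0.14) or replicate 1 of the other clones (-0.17). Mmp19, a secreted protease, was at 0.772, 2.63 and 1.43 RPKM in stem-labelled libraries and at 0.197, 0.707 and 0.0874 RPKM in the others, without overlap of the groups. On rescaling it passed the filter and was called higher, with a log2 fold change of 1.31 ± 0.28 (limma adjusted p = 0.00121). All other libraries were under 1 rescaled RPKM, on 8, 30 and 3 reads, so Mmp19 passed through the stem-labelled group alone. Exons of Mmp19 overlap those of genes on the opposite strand.

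Mmp1a and Mmp1b, which lie beside Mmp3 and Mmp10, were low. Mmp1b had 6, 4 and 11 reads in stem-labelled libraries and 16, 7 and 12 reads in the others. In RPKM this came to 0.0910 to 0.236 in stem-labelled and 0.388 to 0.927 in the other libraries, without overlap, whereas the groups overlapped on rescaling. Mmp1a was at 0.122 to 0.307 RPKM in stem-labelled and 0.199 to 1.16 RPKM in the other libraries, with overlap. The Mmp1a and Mmp1b transcripts share 8.26% and 11.8% of their 50-base stretches with each other. Exons of Mmp1b also overlap Mmp12, read the other way, and whether counting used strand is not stated. Mmp12, Mmp17, Mmp23, Mmp24 and Mmp28 stayed below 0.5 RPKM in every library.

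The related ADAM and ADAMTS proteases, several of which TIMPs also inhibit, showed changes both ways on the deposited scale. Of 20 sought, 17 had a value and 12 were tested, with 3 higher, 2 lower and 7 not passing. Among all genes tested, 29.9% were higher and 25.4% lower. On rescaling 9 were higher and 0 lower, and without stem-labelled replicate 1 or 2 only 2 or 3 were called. Over all genes, 4301 of 9573 tested were called without replicate 1 and 4347 of 9545 without replicate 2. Rescaling gave 6163 higher and 1209 lower of 10279 genes tested, which applies to the next 3 lists as well. The median log2 fold change was 0.47, beside 0.11 for all genes, and 0.27 after the length and GC correction. Adam17, the sheddase that releases TNF and EGF receptor ligands, was higher, at 6.44 ± 2.47 RPKM in stem-labelled and 2.02 ± 0.340 RPKM in the other clones (1.26 ± 0.25, limma adjusted p = 0.00243). Adamts7, which cleaves COMP and other matrix proteins, was higher, at 2.51 ± 1.06 RPKM in stem-labelled clones and 0.718 ± 0.236 RPKM in the other clones (limma adjusted p = 0.00731). It was under 1 RPKM in all other libraries, so it entered the fit through the stem-labelled group alone. Adamts10, a protease linked to fibrillin microfibrils, was lower, at 1.91 ± 0.466 RPKM in stem-labelled and 5.88 ± 2.16 RPKM in the other clones (-1.21 ± 0.25, limma adjusted p = 0.00318). Adam19, another sheddase, was lower, with a log2 fold change of -0.69 ± 0.18 (limma adjusted p = 0.0110). On rescaling Adamts10 and Adam19 were not called (-0.49 and -0.13, adjusted p = 0.130 and 0.581), and Adam19 also lost its call when stem-labelled replicate 1 was left out (adjusted p = 0.0582).

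Genes that activate, hold or clear MMPs at the cell surface were mixed too. Of 18 sought, 16 had a value and 14 were tested, with 6 higher, 3 lower and 5 not passing. Among all genes tested, 29.9% were higher and 25.4% lower. The median of the list was 0.47, or 0.14 after the correction. Rescaling gave 11 higher and 2 lower, and leaving out stem-labelled replicate 2 gave 5 called, beside 4347 of 9545 over all genes. Reck, a membrane-anchored inhibitor of MMP9, MMP2 and MMP14, was at 2.40 ± 0.399 RPKM in stem-labelled and 0.530 ± 0.0382 RPKM in the other clones (1.15 ± 0.17, limma adjusted p = 0.000651). It was under 1 RPKM in all other libraries and so entered the fit through the stem-labelled group. Plau, the urokinase that makes plasmin, an activator of proMMPs, was lower, at 10.7 ± 3.34 RPKM in stem-labelled and 47.3 ± 12.1 RPKM in the other clones (-2.06 ± 0.28, limma adjusted p = 0.000383). Lrp1, an endocytic receptor that clears MMP9 and MMP13 among other ligands, was higher by 3.34 ± 0.31, and Ctsb, the lysosomal cathepsin B, by 1.91 ± 0.25 (limma adjusted p = 0.000117 and 0.000337).

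Transcription factors known from MMP promoters, including AP-1 subunits, did not move one way. All 14 had a value and were tested, with 6 higher, 3 lower and 5 not passing, beside 29.9% higher and 25.4% lower of all genes. The median of the list was 0.31, or 0.05 after the correction. The correction left 3 higher and 2 lower, and rescaling gave 8 higher and 1 lower. Over all genes the correction gave 2609 higher and 2219 lower of 10087 tested, which applies to the next list as well. Jun, an AP-1 subunit, was at 48.7 ± 0.327 RPKM in stem-labelled and 10.0 ± 0.715 RPKM in the other clones (2.18 ± 0.19, limma adjusted p = 0.000117). Junb, another AP-1 subunit, was at 126 ± 34.6 RPKM in stem-labelled and 435 ± 107 RPKM in the other clones (-1.79 ± 0.32, limma adjusted p = 0.00135). Nfkb1, a subunit of NF-kappaB, was higher by 1.33 ± 0.21, and Etv4, an ETS factor, was lower, at -1.59 ± 0.28 (limma adjusted p = 0.000870 and 0.00144). After the correction Runx2, Fosl2 and Ets1, which were called higher on the deposited scale, were not called (names chosen after their values were seen). Junb and Nfkb1 were not called there either (-0.59 and 0.53, adjusted p = 0.144 and 0.0520), and on rescaling Etv4 was not called (-0.66, adjusted p = 0.0567).

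Of the genes for matrix proteins that MMPs cut, 4 of the 7 tested were higher in the stem-labelled clones, where 29.9% of all genes were. Of 15 sought, 11 had a value, and of the 7 tested 1 was lower and 2 did not pass, where 25.4% of all genes were lower. On rescaling 5 were higher and 0 lower, and the correction gave 5 higher and 2 lower. The median was 2.07, and 1.70 after the correction. These are long genes, with a median length of 7447 bases, and in the decile of that length 51.4% of genes were called higher. Col5a1, a chain of the fibril collagen type V, was at 6.08 ± 1.95 RPKM in stem-labelled and 0.670 ± 0.361 RPKM in the other clones (2.07 ± 0.25, limma adjusted p = 0.000233), and reached 1 RPKM in 1 of the other libraries. Col4a1 and Col4a2 of basement membrane, and Fn1, which encodes fibronectin, were higher by 2.50 ± 0.20, 2.13 ± 0.22 and 2.55 ± 0.33 (limma adjusted p = 0.000111, 0.000139 and 0.000303). Of the genes named in these 4 lists, Adam17, Adamts7, Adam19, Ctsb, Jun, Junb, Runx2, Col4a1, Col4a2, Col5a1 and Fn1 have exons that overlap an antisense gene in GENCODE M21. None of the 9 MMP and TIMP members with a value do.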

How the data were processed

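The 6 libraries, 3 per group, were grouped by their tissue labels. The authors deposited RPKM, 1 file per library. The submitters' processing notes name Bowtie2 2.0.6, TopHat2 2.0.9 and mm9 without roles; the counting program and strand are not given in the sources used here. Of 19179 genes, 99.6% were in GENCODE M21, and 80.6% of those had the same start and end there, so coordinates are on GRCm38. RPKM times gene length gave whole multiples of 1 step per library for all values (tolerance 0.01), which returned the reads. At these depths 1 read per kilobase is worth 0.0311 to 0.0993 RPKM.

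Genes with at least 1 RPKM in at least 3 libraries (10097) were tested with limma 3.58.1 (R 4.3.3) on log2(RPKM + 1) with a variance trend, two-sided, Benjamini-Hochberg adjusted, called under 0.05. The test was checked on simulated data. The simulated libraries had neither the length trend nor the mismatch of library totals, so the check does not cover these. Members, lists and motifs were chosen with earlier results of these data known. Named were all members, every other MMP or TIMP tested, and the 4 smallest p of each list. Motif windows were the 250 bases before the RefSeq start. The correction subtracted, in each library, the part of a gene's deviation from its mean that natural splines (5 degrees of freedom each) of GC content and log2 length predict. Ratios of Timp2 to Timp1, Mmp3 to Mmp10 and Mmp14 to Mmp3, and the comparison of groups for overlap on rescaled values, were chosen after seeing the data. With 3 libraries against 3, an exact permutation test of a single value cannot give a two-sided p below 0.1, so none was run.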

Additional observations from a re-analysis of the deposited data

How the results depend on the processing

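The 8 tested members kept their sign under every alternative run that kept them in the fit; a filter of mean RPKM at least 5 removed Mmp13 and Mmp15. Leaving out each library gave log2 fold changes of 2.16 to 2.63 for Mmp14, 0.86 to 1.33 for Mmp15, -3.07 to -2.71 for Mmp9, 0.45 to 0.74 for Mmp3, -2.74 to -1.71 for Mmp10, -1.85 to -0.69 for Mmp13, -2.25 to -1.82 for Timp1 and 1.29 to 1.43 for Timp2. Mmp3 passed the threshold without replicate 1 of the other clones (0.74), with upper-quartile scaling (0.84), rescaled to summed reads (1.51), by limma without the trend (0.59), and with the length and GC correction alone or with the replicate block (1.04). Mmp13 missed it under the same scalings (-1.08 and -0.63), without the trend or without a filter (-1.25), with the correction alone or with the block (-0.78), and without any library except replicate 3 of the other clones. Mmp11 changed sign without replicate 2 of the stem-labelled clones (-0.14) and without replicate 1 of the other clones (-0.17), with a range of -0.17 to 0.23 over the libraries left out. The cause of these changes was not tested.

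Over all genes, rescaling gave 6163 higher and 1209 lower of 10279 tested. Mean RPKM at least 5 gave 3477 called of 5951 tested, 1405 of them higher. The 5 other lists together had 48 genes tested and 28 called, 19 higher and 9 lower. Of all 10097 genes tested, 55.2% were called, 29.9% higher and 25.4% lower. For the lists, rescaling gave 35 higher and 3 lower, where most genes called over all were higher too, and the mean filter 18 called, 11 higher. Leaving out each library gave 4286 to 5336 genes called over all, 2068 to 3034 higher and 2149 to 2302 lower, and 21 to 28, 13 to 20 and 7 to 9 for the lists. Counted as reads and not per length, the mean Timp2 to Timp1 ratio was 19.1 in stem-labelled and 1.72 in other clones, and Mmp14 to Mmp3 1.75 and 0.51, by construction.

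Same-numbered libraries did not deviate together (correlations -0.125, 0.0255 and -0.0848). This does not settle whether the numbers pair them, since the experiment of each library is not stated. The replicate block gave 5212 genes called against 5577. Recovered reads tested by limma-voom gave 5520. Other ratios moved by less than 1 SD. Low read counts limit Mmp2, Mmp15, Mmp1a and Mmp1b.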
